A study of Mus musculus with 6 samples.

Results

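Fgl2, the gene of fibrinogen-like protein 2, is 1 of the 32285 features counted in 6 single-cell RNA libraries of kidney T cells. It was taken by its symbol alone (ENSMUSG00000039899). Every library held its UMIs (unique molecular identifiers, each standing for 1 captured RNA molecule), 61918 in the 47717 cells kept here. Fgl2 belongs to the proteins with a fibrinogen-like domain. A secreted form is known as an effector of regulatory T cells that acts through the inhibitory Fc receptor Fcgr2b and through Fcgr3 on other immune cells, and a membrane form, best known from macrophages, cleaves prothrombin to thrombin. T cells of several kinds express it, and interferon gamma is known to induce it.

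T cells were sorted as CD45+ and positive for the αβ T cell receptor from kidneys of male C57BL/6J mice, wild type and 7 to 8 weeks old, and divided into CD4+, CD8+ and double negative (DN, neither CD4+ nor CD8+) cells. Control libraries came from normal kidneys. IR libraries came from kidneys after ischemia reperfusion, with the vessels of each kidney clamped for 30 min, and the hour of harvest for these libraries and the number of mice in each are not given in the sources used here. Each of the 6 groups is 1 library, so differences between groups have no replicate check and carry no test. All intervals given are 95% intervals for counting error alone.

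The libraries held 4705 to 10885 barcodes and, after filtering, 3967 to 10063 cells. Median depth was 4968 to 6567 retained UMIs per cell in the control libraries and 938 to 1429 in the IR libraries, so shares of cells are compared below only after each cell was thinned to the same number of UMIs. The matrix headers name Cell Ranger 5.0.1 for the control and 6.0.1 for the IR libraries, and the condition and the software version cannot be told apart. Between 37 and 61 kept barcodes per library carried a barcode sequence that another library of the same condition also held. Cd4 and Cd8a, the genes of the sorted receptors, followed the labels. Cd4 stood at 210 CPM (UMIs of a gene per 1e+06 retained UMIs of the library) in control CD4 and 146 CPM in IR CD4 and at no more than 0.47 CPM elsewhere, Cd8a at 867 CPM in control CD8 and 400 CPM in IR CD8 and at no more than 0.25 CPM elsewhere.

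In the mouse genome build GRCm38, Fgl2 lies at chr5:21372642-21378374 on the plus strand, with 2 exons of 3788 bases in all and 1 intron of 1945 bases (GENCODE release M21). Its coding sequence starts in the first exon at 21372717 and ends in the second at 21375957, and the 3′ UTR fills the rest of the second exon to 21378374, where a library primed at the RNA's 3′ end reads the gene. The whole gene sits inside an intron of Ccdc146, a coiled-coil protein gene of 131717 bases on the opposite strand, which has 0 exonic bases within Fgl2. The sequence before the gene's start is shown because interferon gamma acts through STAT factors, and genes of its pathway are set beside Fgl2 further on. AP-1 acts downstream of the T cell receptor. It covers chr5:21372423-21372667 on the plus strand (RefSeq, GRCm38.p6). Capitals mark a match to TTCNNNGAA, the GAS type of element that STAT factors bind, and to TGANTCA, the AP-1 type of element.

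Fgl2 promoter: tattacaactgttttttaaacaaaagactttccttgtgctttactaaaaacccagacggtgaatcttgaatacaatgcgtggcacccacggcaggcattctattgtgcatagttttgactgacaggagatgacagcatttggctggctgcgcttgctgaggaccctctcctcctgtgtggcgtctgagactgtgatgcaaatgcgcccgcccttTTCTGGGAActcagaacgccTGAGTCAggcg

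Both strands of 32851 promoter windows of 300 bases were searched, and the 2 motifs read the same on either strand. TTCNNNGAA was found in 8.30% of them and TGANTCA in 7.81%. In Fgl2 the first match, TTCTGGGAA, starts 36 bases before the RefSeq start and spans the start that GENCODE gives. The second, TGAGTCA, starts 16 bases before the RefSeq start and falls in the 5′ UTR by GENCODE. These matches describe the letters only, and no binding was measured.

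Fgl2 was highest in DN, next in CD4 and lowest in CD8 cells, in control and IR kidneys alike. In control libraries its level was 279 CPM (275 to 284) in CD4 cells from 14100 UMIs, 186 CPM (182 to 190) in CD8 cells from 8489 UMIs and 599 CPM (593 to 605) in DN cells from 36399 UMIs. In IR libraries it was 94.1 CPM (89.3 to 99.1) in CD4 cells from 1453 UMIs, 36.6 CPM (32.1 to 41.6) in CD8 cells from 236 UMIs and 286 CPM (271 to 303) in DN cells from 1241 UMIs. All 6 levels differed beyond counting error except control CD4 and IR DN, whose intervals overlapped. The IR DN library therefore held about as much Fgl2 relative to its total as the control CD4 library.

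**Figure D1:**
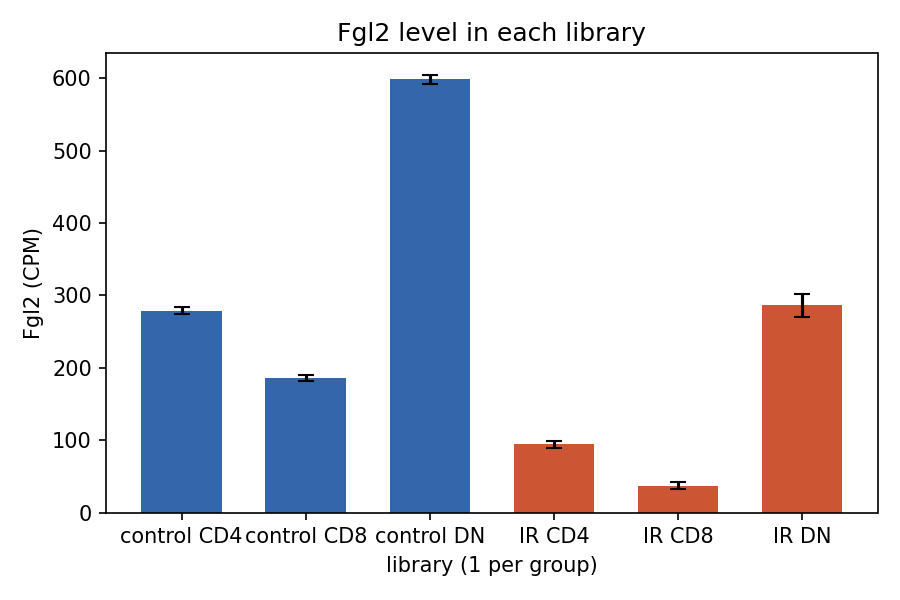
Fgl2 level in CPM of retained UMIs (vertical axis) in each of the 6 libraries (horizontal axis), control in blue and IR in red, with 95% Poisson intervals that cover counting error only. The control DN library stands highest at 599 CPM and the IR CD8 library lowest at 36.6 CPM.

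Among control libraries Fgl2 was 2.14-fold higher in DN than in CD4 cells (log2 ratio 1.10, 1.07 to 1.13) and 3.21-fold higher in DN than in CD8 cells (1.68, 1.65 to 1.72). Control CD4 exceeded control CD8 by a log2 ratio of 0.58 (0.55 to 0.62). A level in control DN at least 2-fold above both other control libraries was seen for 75 of 9049 features that reached 10 CPM (0.829%), Fgl2 among them. The study picked out Fgl2 as a DN gene on these same libraries, so its place in that count is not independent evidence. Between IR libraries the gaps were wider, 3.04-fold for DN over CD4 (1.61, 1.49 to 1.72) and 7.81-fold for DN over CD8 (2.97, 2.76 to 3.17), where 137 of 9093 features (1.51%) passed the same rule. IR CD4 exceeded IR CD8 by 2.57-fold (1.36, 1.16 to 1.57).

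Fgl2 was lower in all 3 IR libraries than in the control library of the same sort. The log2 ratio was −1.57 (−1.65 to −1.49) in CD4, −2.35 (−2.54 to −2.16) in CD8 and −1.06 (−1.15 to −0.98) in DN cells, that is 2.97-fold, 5.08-fold and 2.09-fold lower. The median of all features at 10 CPM or more was itself −0.27, −0.37 and −0.26, which leaves −1.30, −1.97 and −0.80 for Fgl2 relative to this shift. Features at least 2-fold lower in IR made up 15.2% of 9036 in CD4, 17.5% of 9120 in CD8 and 11.3% of 9201 in DN cells. In CD8 cells only 43 features had a lower ratio than Fgl2, against 290 in CD4 and 862 in DN cells. Fewer cells that express Fgl2 and less Fgl2 RNA per cell both lower a pooled level, and the shares of cells below bear on this only in part.

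Ccdc146, the gene around Fgl2, went the other way. Its level was 5.72 CPM in control CD4, 5.05 CPM in control CD8 and, at its highest, 11.6 CPM in control DN, against 24.5, 16.0 and 63.7 CPM in the IR libraries, a log2 ratio of 2.10 (1.87 to 2.32), 1.66 (1.31 to 2.01) and 2.46 (2.26 to 2.66). At 500 UMIs per cell, Fgl2 stood at 529 CPM (362 to 747) in the 121 IR DN cells with a Ccdc146 UMI and at 300 CPM (276 to 326) in the others, and at 222 CPM (118 to 380) against 85.9 CPM (77.9 to 94.4) in IR CD4 cells. The 57 IR CD8 cells with a Ccdc146 UMI held no Fgl2 UMI (0 to 129 CPM), against 39.1 CPM (32.4 to 46.7) in the others. In control DN cells the levels with and without a Ccdc146 UMI were 528 CPM (289 to 886) and 609 CPM (586 to 632), with overlapping intervals. The study's methods name default settings for preprocessing without saying how intronic reads and strand were handled, and the share of these UMIs that stems from the overlap was not tested.

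With each cell thinned to 500 retained UMIs, at which depth no kept cell was left out, the share of cells with an Fgl2 UMI was 24.4% (23.5 to 25.3, exact binomial) in control DN, 12.0% (11.4 to 12.7) in control CD4 and 8.54% (7.98 to 9.13) in control CD8. The IR libraries gave 3.85% (3.48 to 4.24) in CD4, 1.73% (1.42 to 2.08) in CD8 and 13.1% (12.0 to 14.2) in DN cells. The order was that of the levels. Without thinning the shares were 47.6%, 36.4% and 83.7% in the control and 10.1%, 3.19% and 22.8% in the IR libraries, at unequal depths.

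**Figure D2:**
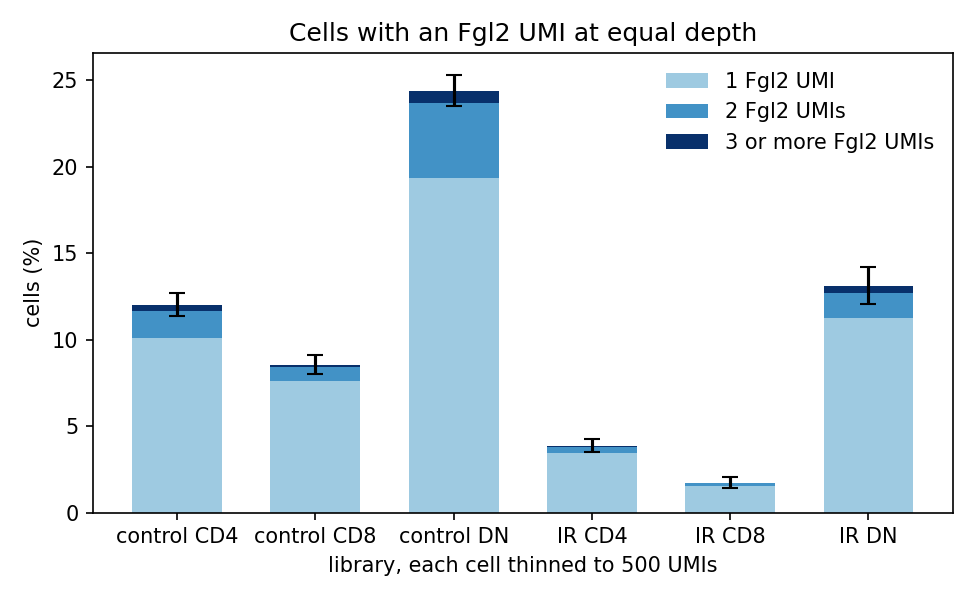
Share of cells in percent (vertical axis) with 1, 2 or 3 or more Fgl2 UMIs in each library (horizontal axis) after every cell was thinned to 500 retained UMIs; bars are stacked and error lines are exact 95% binomial intervals of the whole share. The share is 24.4% in control DN, 13.1% in IR DN and 1.73% in IR CD8.

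Most cells with Fgl2 held 1 UMI of it at this depth. A cell with Fgl2 held on average 1.20 UMIs in control CD4, 1.12 in control CD8 and 1.25 in control DN, against 1.14, 1.12 and 1.17 UMIs in the matching IR libraries. Cells with 2 or more made up 1.91%, 0.925% and 5.04% of the control libraries and 0.417%, 0.175% and 1.84% of the IR libraries. At 2000 UMIs per cell, a depth that only the control libraries reach in most cells, 31.5% of CD4, 25.8% of CD8 and 60.1% of DN cells carried Fgl2. The mean per positive cell was then 1.73, 1.52 and 2.03 UMIs. The variance of Fgl2 UMIs over cells was 1.92, 1.64 and 1.64 times their mean, so cells of each library varied in Fgl2 by more than even sampling of 1 common level gives. The highest count in 1 unthinned cell was 27 UMIs, in control DN.

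Depth itself moved with the level in some libraries. Control DN cells were split by depth in 3 groups of nearly equal size, and Fgl2 was 677 CPM (663 to 691) in the shallowest, 615 CPM (604 to 626) in the middle and 551 CPM (542 to 559) in the deepest group, while control CD8 gave 222, 213 and 163 CPM. Control CD4 was nearly even at 262, 290 and 278 CPM. In each such group control DN stood above control CD4 and control CD4 above control CD8. IR DN cells gave 322, 305 and 256 CPM, each below every group of control DN.

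Macrophages are a known source of Fgl2, so markers of other cells are given beside it. The 12 myeloid genes summed to 29.1, 16.9 and 10.4 CPM in control CD4, CD8 and DN and to 75.8, 30.3 and 26.5 CPM in the IR libraries, and were highest in CD4 cells while Fgl2 was highest in DN cells. A list of 10 myeloid and antigen presentation genes summed to 162, 145 and 136 CPM in control CD4, CD8 and DN. Cst3 alone gave 92.5, 101 and 99.7 CPM of this, and 143 of 219, 133 of 159 and 136 of 165 CPM in the IR libraries. A split by this list therefore rests largely on Cst3 and cannot set myeloid RNA apart. Kept cells with at least 3 UMIs of the list held 263 CPM of Fgl2 (245 to 281) in control CD4. The remaining cells held 280 CPM (276 to 285), with overlapping intervals. In control CD8 the levels were 221 CPM (204 to 240) and 184 CPM (180 to 188), higher in the cells with such UMIs, and in control DN 615 CPM (591 to 639) and 597 CPM (591 to 604), with overlapping intervals. IR CD4 cells held 60.5 CPM (33.1 to 102) with and 94.6 CPM (89.8 to 99.6) without, and IR DN cells 290 CPM (116 to 597) and 286 CPM (271 to 303), again with overlapping intervals. The 27 IR CD8 cells with such UMIs held no Fgl2 UMI (0 to 94.0 CPM). The 7 NK cell genes summed to 168, 392 and 1003 CPM in the control and 286, 831 and 1301 CPM in the IR libraries, with the highest sum in DN cells in both conditions, as for Fgl2. Ncr1, a receptor that defines NK cells, was at 0.198, 0.395 and 15.3 CPM in control and 0.389, 0.311 and 6.69 CPM in IR libraries, and the part of NK cells in the Fgl2 levels was not tested. Tubule genes summed to 2.48 CPM or less in every library, 4 endothelial genes to 45.5 to 130 CPM and 5 B cell genes to 117 to 180 CPM.

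The 565 barcodes without any UMI of 6 T cell receptor complex genes, left out of the cells, gave a further level. It was 127 CPM (77.4 to 196) in 111 control barcodes and 69.4 CPM (48.3 to 96.5) in 454 IR barcodes. For IR CD4 that level, 88.5 CPM (50.6 to 144), overlapped the level of the kept cells, as did that for IR CD8, 7.01 CPM (0.177 to 39.1), while IR DN cells at 286 CPM stood above their 99.4 CPM (58.9 to 157). Such barcodes may hold T cells whose receptor RNA was missed as well as free RNA. Cells with a UMI of Ccr7, the lymph node homing receptor of naive T cells, gave a lower value within the same libraries. At 500 UMIs only 0.201% (0.024 to 0.726) of 993 IR CD4 cells and 0.0608% (0.0015 to 0.338) of 1644 IR CD8 cells with Ccr7 carried Fgl2, against 4.24% and 2.32% of the cells without Ccr7. In control libraries the shares with Ccr7 were 1.34% (0.163 to 4.76) of 149 CD4 and 2.61% (1.26 to 4.75) of 383 CD8 cells, against 12.2% and 8.80% of those without. The part of free RNA in the levels was not tested. The IR DN library held 11 cells with Ccr7, too few for such a value.

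In CD4 and CD8 cells Fgl2 was lower with Ccr7 than without. At 2000 UMIs per cell it stood at 25.9 CPM (15.6 to 40.4) in control CD4 cells with Ccr7 and at 284 CPM (276 to 292) in those without. Control CD8 cells gave 23.7 CPM (16.7 to 32.7) and 217 CPM (209 to 225). The control DN library held 6 cells with Ccr7 among 8599. In the IR libraries, at 500 UMIs, the values were 4.03 CPM (0.488 to 14.6) and 96.6 CPM (87.7 to 106) in CD4 and 1.22 CPM (0.0308 to 6.78) and 52.0 CPM (43.1 to 62.1) in CD8 cells.

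Within control CD4 cells Fgl2 was higher where genes shared with innate-like T cells and NK cells were detected. Cells with Klre1, a killer cell lectin-like receptor, held 591 CPM (528 to 660) against 262 CPM (254 to 270) without. Cells with Fcer1g, the Fc receptor gamma chain, held 560 CPM (476 to 654) against 267 CPM (259 to 275). Klrb1c, which codes for NK1.1, gave 425 and 262 CPM, and Zbtb16, the PLZF transcription factor of NKT and other innate-like cells, gave 406 and 238 CPM. Il2rb, the beta chain of the IL-2 and IL-15 receptors, gave 331 and 204 CPM, and Kcnq5, a potassium channel gene, gave 353 and 196 CPM. All 6 pairs of intervals were apart.

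Control DN cells did not follow that pattern. Klrb1c split them into 547 CPM (526 to 569) with and 632 CPM (618 to 646) without, and Zbtb16 into 573 CPM with and 627 CPM without, lower where the gene was detected. Fcer1g gave 605 CPM (578 to 634) and 611 CPM (598 to 624), with overlapping intervals. Klre1 gave 641 CPM (616 to 667) and 601 CPM (588 to 614), and Il2rb 628 and 570 CPM, higher with the gene by less than 1.5-fold. The IR DN library, at 500 UMIs, had 301 CPM (230 to 387) with and 308 CPM (282 to 335) without Klrb1c, and 301 CPM (229 to 388) and 308 CPM (283 to 335) for Fcer1g. Klre1 gave 441 CPM (327 to 581) and 299 CPM (275 to 325) there.

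**Figure D3:**
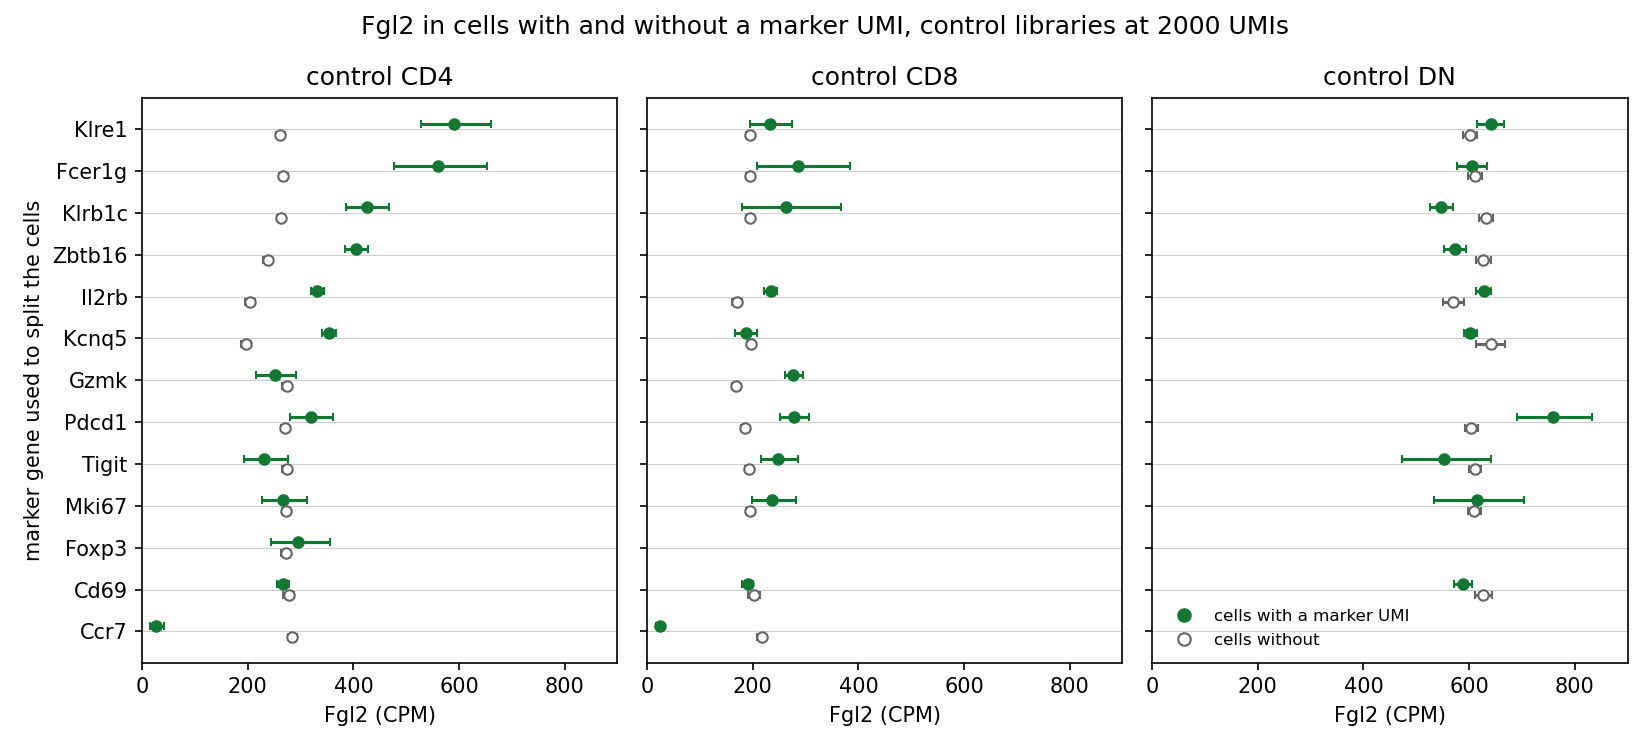
Fgl2 level in CPM (horizontal axis) in cells with (filled) and without (open) a UMI of each marker gene (vertical axis) in control CD4, CD8 and DN libraries thinned to 2000 UMIs per cell, with 95% Poisson intervals; splits with under 50 cells carrying the marker are not drawn. In CD4 cells Fgl2 reached 591 CPM with Klre1 and 25.9 CPM with Ccr7, while DN cells stood at 547 to 759 CPM with each drawn marker.

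The difference between DN and CD4 cells therefore depended on which cells were set side by side. Among cells with a Klrb1c, Fcer1g or Klre1 UMI, control DN stood at 584 CPM (566 to 601) and control CD4 at 463 CPM (430 to 498), a log2 ratio of 0.33 (0.22 to 0.45) at 2000 UMIs and of 0.12 (−0.19 to 0.46) at 500 UMIs, where the interval includes no difference. Among cells with none of them the levels were 629 CPM (614 to 645) and 253 CPM (245 to 261), a log2 ratio of 1.32 (1.26 to 1.38), or 1.14 (1.03 to 1.24) at 500 UMIs. In IR libraries at 500 UMIs DN exceeded CD4 by 0.98 (0.45 to 1.56) among cells with and 1.85 (1.66 to 2.05) among cells without these UMIs. Cells with such a UMI made up 42.5% of control DN, 9.44% of control CD4 and 5.20% of control CD8 cells at 2000 UMIs. In CD8 cells at 2000 UMIs the level was 225 CPM (192 to 262) with and 194 CPM (187 to 201) without, so control DN stayed above control CD8 in both kinds, with log2 ratios of 1.37 (1.15 to 1.61) and 1.70 (1.63 to 1.76).

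Other markers split the CD8 library. Cells with Gzmk, granzyme K, held 277 CPM of Fgl2 (260 to 295) against 168 CPM (160 to 176) without, and in IR CD8 cells 141 CPM (87.2 to 215) against 33.6 CPM (27.4 to 40.9). Cells with Pdcd1, the inhibitory receptor PD-1, held 277 CPM (251 to 306) against 186 CPM (179 to 194). Pdcd1 went with higher Fgl2 in DN cells too, at 759 CPM (690 to 833) against 605 CPM (593 to 617) in control and at 792 CPM (477 to 1236) in 48 cells against 301 CPM (277 to 326) in IR. For Foxp3, the transcription factor of regulatory T cells, the intervals overlapped. The 191 control CD4 cells with Foxp3 held 296 CPM (244 to 356) and the others 272 CPM (264 to 280), and Foxp3 cells carried 2.51% of the library's Fgl2 UMIs. Mki67, a marker of dividing cells, and Cd69, an activation and residency marker, gave overlapping intervals in control CD4 cells, whereas control DN cells held 588 CPM (571 to 605) with and 627 CPM (612 to 643) without Cd69.

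The genes most like Fgl2 were taken by comparing cells with and without an Fgl2 UMI inside each control library at 2000 UMIs, 2595 against 5654 CD4, 1837 against 5292 CD8 and 5171 against 3428 DN cells. The measure was the log2 ratio of pooled CPM nearest to 0 over the 3 libraries. Itga1, the CD49a integrin chain of tissue-resident T cells, had ratios of 1.03 (0.94 to 1.12) in CD4, 1.13 (1.04 to 1.22) in CD8 and 0.52 (0.45 to 0.60) in DN cells. Chst2, a carbohydrate sulfotransferase, had 0.57, 0.82 and 0.57. Entpd1, the CD39 ectoenzyme that breaks down extracellular ATP, had 0.78, 0.96 and 0.48, and Cd38, an NAD-consuming ectoenzyme, 0.80, 0.92 and 0.46. Tnfsf10, the TRAIL death ligand, had 0.45, 0.77 and 0.34. The other members of the first 10 were Metrnl, a secreted protein, Edaradd, an adaptor of the ectodysplasin receptor, Hip1, a clathrin adaptor, S100a6, a calcium-binding protein, and Atp2b4, a plasma membrane calcium pump, with smallest ratios of 0.35 to 0.47. In the IR libraries, which took no part in the choice, 8 of these 10 had a higher CPM in cells with Fgl2 in all 3, Chst2 with 1 UMI in these cells in IR CD8, as did 17.5% of the 3981 genes measured, and the exceptions were Cd38, at −0.43 in IR DN, and Edaradd, at −0.71 in IR CD4 and without a UMI in the 109 IR CD8 cells with Fgl2.

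The ratios of these genes were smallest in DN cells, except that Metrnl was smallest in CD4 cells and Chst2 was level between CD4 and DN cells. No gene reached 1.5-fold higher in all 3 control libraries (0 of 3981, 0%), while 61 did so in CD4, 72 in CD8 and 3 in DN cells taken singly. The 0 depended on the processing, since 10 genes passed without thinning, 3 with cells of 2 or more Fgl2 UMIs (Chst2, Entpd1 and Itga1) and 2 at a minimum of 20 CPM. At equal depth a cell without an Fgl2 UMI may still hold Fgl2 RNA, and its part in the smaller ratios of DN cells was not tested.

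Larger differences were seen for genes lower in cells with Fgl2. At least 1.5-fold lower in cells with Fgl2 in all 3 control libraries were 9 of 3981 genes (0.226%). The 5 most unlike were Aff3, a nuclear protein gene of the AF4 family, at −2.34 in CD4, −2.01 in CD8 and −1.80 in DN cells, Fgf13, an intracellular relative of the fibroblast growth factors, at −2.12, −1.28 and −1.27, Il7r, the IL-7 receptor chain, at −1.70, −2.11 and −0.91, Emb, the cell surface protein embigin, at −1.04, −1.05 and −0.80, and Klf2, the transcription factor that maintains recirculation of naive T cells, at −1.73, −1.88 and −0.74. The other 4 were Tcf7, the TCF-1 factor of naive and memory T cells, Gpr183, an oxysterol receptor, Sidt1 and Tagap. Thinned to 1000 UMIs, Tcf7, Sidt1 and Tagap no longer passed, and Tagap did not pass without the myeloid barcodes. All 9 had a lower CPM in cells with Fgl2 in each of the 3 IR libraries, as did 15.0% of the 3981 genes, and 5 of the 9 were at least 1.5-fold lower in all 3, as were 0.377% of the 3981. Il7r in IR DN was close to 0 at −0.01, against −2.51 in IR CD8.

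**Figure D4:**
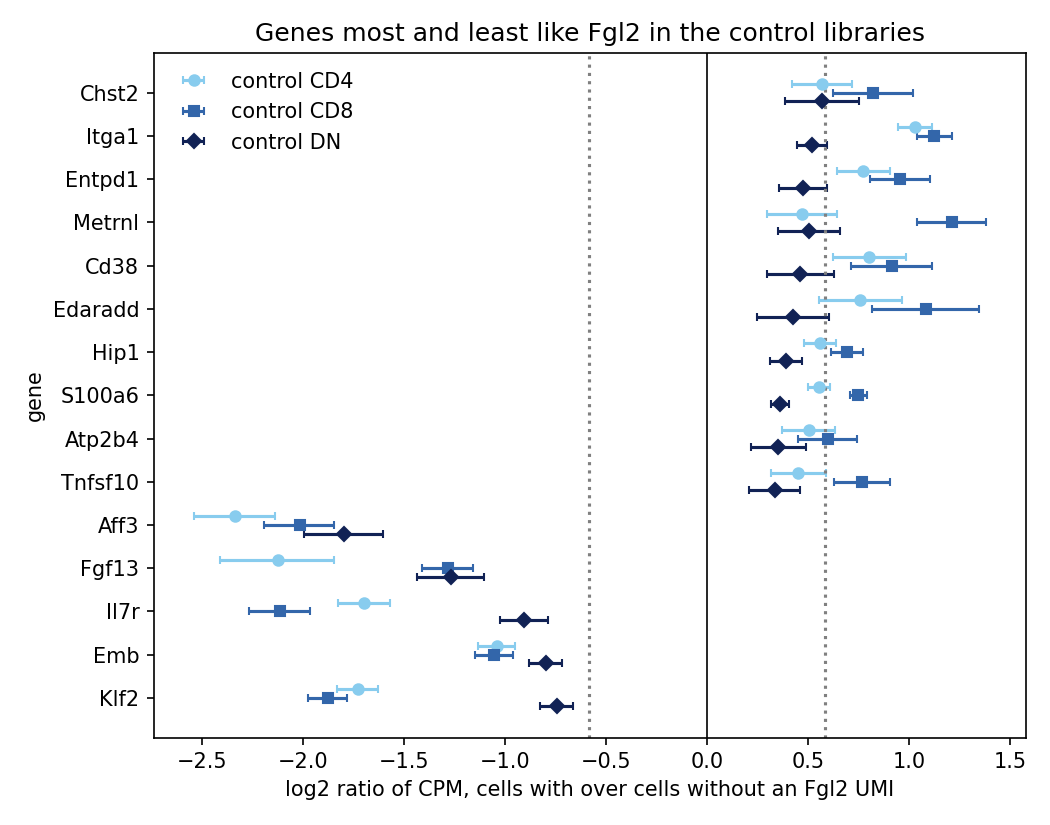
Log2 ratio of pooled CPM in cells with over cells without an Fgl2 UMI (horizontal axis) for the 10 genes most like and the 5 most unlike Fgl2 (vertical axis) in control CD4, CD8 and DN libraries at 2000 UMIs per cell, with exact 95% counting intervals and dotted lines at 1.5-fold. Aff3 lies between −2.34 and −1.80, and Itga1 between 0.52 and 1.13.

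Gene lists were read the same way, cells with over cells without Fgl2, by counts and medians only. Of 10 naive and recirculating genes 5 were measured at 50 CPM, and 3 of them (Tcf7, Klf2 and Il7r, the first not when thinned to 1000 UMIs) were lower by 1.5-fold in all 3 control libraries, with a list median of −1.27 in CD4, −1.88 in CD8 and −0.63 in DN cells, where the median of all features was 0.00 in each. Lef1 was at −0.83, −1.43 and −0.17, and Satb1 at −0.16, −2.01 and −0.21. Of 20 cytotoxic and innate-like genes 10 were measured and none passed in all 3 libraries, with medians of 0.58, 0.35 and 0.08. Klrc1, which codes for NKG2A, was at 1.26, 0.35 and 0.18, and Klrd1, its partner CD94, at 1.03, −0.05 and −0.01, so both went with Fgl2 in CD4 but hardly in DN cells. Of 9 tissue-resident genes 7 were measured, with medians of 0.27, 0.22 and 0.05, and Cxcr6, the CXCL16 receptor, was at 0.63, 0.92 and 0.19 whereas Nr4a1, an early gene of T cell receptor signaling, was at −0.41, −0.64 and −0.59.

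Of 16 suppressive effector genes only Entpd1, Tgfb1 and Ikzf2 were measured. Tgfb1, the gene of the cytokine TGF-beta 1, was at 0.14, 0.06 and −0.05. Ikzf2, the Helios transcription factor, was at 0.21 in CD4, −0.03 in CD8 and −1.02 in DN cells, that is lower in the DN cells with Fgl2. Of 15 genes of the interferon gamma pathway 12 were measured and none passed, with medians of 0.15, 0.09 and 0.03. Ifng itself was at 0.30, 0.52 and 0.00, Irf1 at −0.04, −0.19 and −0.06 and Gbp4, a guanylate-binding protein gene induced by interferon, at 0.18, 0.13 and 0.04.

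Fgl2 was the only gene of its kind with a level to compare. The other 19 genes of the fibrinogen domain list, of which Fibin shares only a like name, stayed under 10 CPM in every library, with Angptl4, an angiopoietin-like protein gene, at 4.97 CPM in control DN. Fcgr2b, the inhibitory receptor for secreted Fgl2, was at 0.28 to 3.26 CPM, and Fcgr3 at 1.90 to 6.69 CPM. F2r, the thrombin receptor PAR1, was the one gene of the receptor and coagulation list above 50 CPM, with control levels (CD4, CD8, DN) of 75.3, 69.3 and 117 CPM and IR levels of 69.7, 59.8 and 144 CPM. It was also higher in cells with Fgl2, at 0.57, 0.35 and 0.17.

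Across libraries the groups did not all move with Fgl2. In control DN over CD4, 11 of 19 cytotoxic and innate-like genes at 10 CPM were at least 2-fold higher and 1 was lower, with a median of 1.87, and 0 of 10 naive and recirculating genes were higher and 4 lower, with a median of −0.93. Of all 8860 features 1.35% were higher and 1.37% lower by that rule, with a median of 0.00. In control DN over CD8 the cytotoxic and innate-like genes were divided, with 6 of 20 higher and 6 lower and a median of 0.08, beside 3.55% of 8969 features higher and 3.03% lower and a median of −0.02. In IR DN over CD8 8 of 20 were higher and 6 lower, with a median of 0.00, beside 7.53% of 8985 features higher and 4.22% lower and a median of 0.10. In IR over control, 7 of 10 naive and recirculating genes were at least 2-fold higher in CD4 and in CD8 cells, with medians of 1.76 and 1.26, and 2 of 7 in DN cells, with a median of 0.27, while of all features 7.71% in CD4, 8.00% in CD8 and 8.36% in DN cells were that much higher. Ccr7 was at 32.9, 85.5 and 0.921 CPM in control CD4, CD8 and DN and at 248, 699 and 8.54 CPM in the IR libraries. Klf2 was at 426, 742 and 278 CPM against 2082, 3647 and 824 CPM. Interferon gamma pathway genes at least 2-fold lower in IR numbered 5 of 15 in CD4, 5 of 15 in CD8 and 4 of 14 in DN. Of all features 15.2%, 17.5% and 11.3% were that much lower. The list medians were −0.85, −0.85 and −0.58, beside −0.27, −0.37 and −0.26 for all features. At least 2-fold higher were 2 genes of the list in each sort, beside 7.71%, 8.00% and 8.36% of all features. Socs1, a feedback inhibitor of the pathway, was at 92.1, 88.7 and 120 CPM in control and 417, 435 and 407 CPM in IR. Ifng was at 450, 340 and 474 CPM in control and 656, 390 and 1037 CPM in IR. Irf1 was at 295, 313 and 287 CPM in control and 460, 523 and 359 CPM in IR. Of the genes most like Fgl2, which had to reach 50 CPM in the control libraries alone and are therefore not counted here, Itga1 was at 262, 283 and 396 CPM in control and 49.2, 39.9 and 138 CPM in IR, whereas S100a6 was at 696, 1361 and 1123 CPM in control and 748, 1324 and 880 CPM in IR, and Metrnl in DN cells at 88.7 CPM in control and 95.1 CPM in IR.

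Cells with a UMI of at least 1 of the 10 naive and recirculating genes, at 500 UMIs, made up 52.4% of CD4, 53.5% of CD8 and 53.1% of DN cells in control and 74.4%, 80.0% and 60.3% in IR libraries. The list marks more than naive cells, since DN cells with it almost lacked Ccr7. Fgl2 was lower in cells with such a UMI in all 6 libraries. It stood at 242 CPM (223 to 263) with and 340 CPM (316 to 365) without in control CD4, at 125 CPM (111 to 139) and 269 CPM (247 to 291) in control CD8 and at 553 CPM (524 to 584) and 671 CPM (636 to 707) in control DN. In IR cells it stood at 62.3 CPM (54.5 to 70.8) and 160 CPM (139 to 184) in CD4, at 19.8 CPM (14.7 to 26.1) and 114 CPM (89.6 to 144) in CD8 and at 275 CPM (246 to 306) and 356 CPM (316 to 400) in DN cells.

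**Figure D5:**
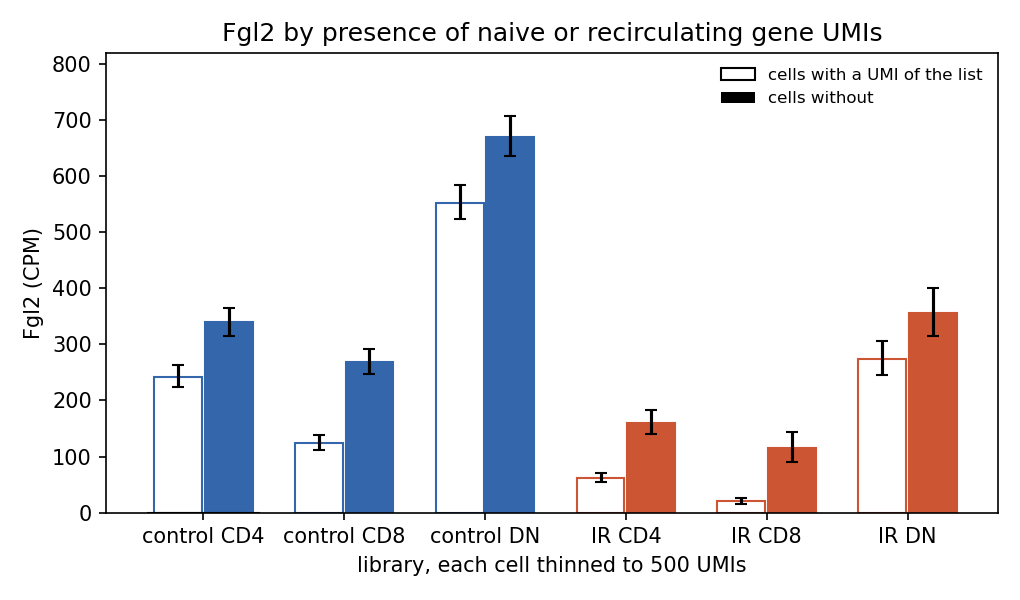
Fgl2 level in CPM (vertical axis) in cells with (open bars) and without (filled bars) a UMI of the 10 naive and recirculating genes in each library (horizontal axis), thinned to 500 UMIs per cell, with 95% Poisson intervals. The filled bars run from 671 CPM in control DN to 114 CPM in IR CD8.

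Leaving out the cells with such a UMI, a split chosen after the data were seen, brought the log2 ratio of IR over control at 500 UMIs from −1.72 to −1.08 (−1.31 to −0.86) in CD4, from −2.31 to −1.23 (−1.60 to −0.88) in CD8 and from −0.99 to −0.91 (−1.10 to −0.73) in DN cells. Fgl2 was lower in IR among the cells without these UMIs, by 2.12-fold, 2.35-fold and 1.88-fold, and the 3 intervals overlapped. In the same cells DN exceeded CD4 by 0.98 (0.85 to 1.11) and CD8 by 1.32 (1.18 to 1.46) in control, and CD4 by 1.15 (0.89 to 1.42) and CD8 by 1.64 (1.26 to 2.03) in IR libraries. A cell without such a UMI at 500 UMIs may still hold RNA of these genes. In control CD4, CD8 and DN 47.6%, 46.5% and 46.9% of cells lacked one at 500 UMIs. At 2000 UMIs, with shallower cells left out, 14.7%, 20.7% and 11.9% did. The split may therefore not compare like cells in control and IR, and the part of cell composition in the lower IR levels was not tested.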

How the data were processed

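Droplet-based 3′ libraries of sorted kidney T cells were analysed from the filtered matrices of raw UMI counts per gene and cell that the authors deposited, made with Cell Ranger (5.0.1 for control and 6.0.1 for IR per the file headers, 6.0.1 alone in the submitters' processing notes) against mm10. Barcodes with under 500 features, over 20% mitochondrial counts, the top 5% of UMIs or no UMI of Cd3d, Cd3e, Cd3g, Trac, Trbc1 or Trbc2 were removed, in place of the study's removal by cluster, and no doublet caller was run. Totals left out 104 features, those of mitochondrial and ribosomal protein genes and Malat1. Counts were summed per library and given as CPM with exact Poisson, binomial (Clopper-Pearson) and conditional binomial 95% intervals. Depth was matched by random thinning without replacement. With 1 library per group no test was run. A gene at 0 UMIs entered ratios at 3 counts, with no ratio where that turned its direction, and directions in IR cells with and without Fgl2 were read from CPM. Named genes were Fgl2, the 10 most like and 5 most unlike it (at 50 CPM or more in each control library), the gene overlapping it, and members of gene lists by counts. Other genes were named as examples after their values were seen. The member and the lists were chosen with earlier results of these data known. Gene positions came from GENCODE M21. Python 3.11.15, scipy 1.17.1 and edgeR 4.0.16 (for TMM scaling factors alone) were used, and the calling scripts were checked on simulated data. Alternatives are given in the closing section.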

Additional observations from a re-analysis of the deposited data

How the results depend on the processing

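No paired analysis was possible because each group had 1 library. All 7 log2 ratios of Fgl2 between libraries kept their sign under every alternative. Keeping mitochondrial, ribosomal and Malat1 counts in the totals gave 1.78 for control DN over CD8, 1.78 and 3.31 for IR DN over CD4 and CD8, and −1.92, −2.77 and −1.24 for IR over control in CD4, CD8 and DN. Averaging over cells gave 1.15 and 1.64 for control DN over CD4 and CD8. Without cell filters the latter was 1.72, and with the top 5% of barcodes kept 1.73. Thinning to 500 UMIs gave 1.81 for IR DN over CD4 and −1.72 for IR over control in CD4. Centring by intronic length gave −2.00 for IR over control in CD4 and −1.35 in DN. The next alternatives were chosen after seeing the data. Leaving out cells with naive or recirculating UMIs gave 0.98 and 1.32 for control DN over CD4 and CD8, 1.15 and 1.64 for IR DN over CD4 and CD8, and −1.08, −1.23 and −0.91 for IR over control. Leaving out cells with Klrb1c, Fcer1g or Klre1 UMIs gave 1.14 for control DN over CD4, 1.85 for IR DN over CD4 and −1.73 for IR over control in CD4. TMM scaling, keeping barcodes without a T cell UMI, and leaving out myeloid or shared barcodes moved none of the 7 beyond its counting interval. Shares of cells with Fgl2 were higher at greater depth, where shallower cells were also left out, 2.05%, 12.8% and 0.641% of control CD4, CD8 and DN and 12.8%, 57.7% and 47.3% of the matching IR cells at 1000 UMIs. At that depth the control libraries (in the order CD4, CD8, DN) gave 19.6%, 15.6% and 40.8% and the IR libraries 7.79%, 2.74% and 20.1%, and without thinning these were 47.6%, 36.4%, 83.7%, 10.1%, 3.19% and 22.8%. Genes higher with Fgl2 in all 3 control libraries numbered 10 without thinning, 2 at a minimum of 20 CPM and 3 for cells with 2 or more Fgl2 UMIs against 0 (Chst2, Entpd1 and Itga1). Genes lower numbered 27 without thinning and 22 at 20 CPM, both including all 9 reported. Thinning to 1000 UMIs called 8 genes lower, 6 of them among the 9, and lost Tcf7, Sidt1 and Tagap, and leaving out myeloid barcodes lost Tagap. Of the ratios of the 15 named genes under these alternatives, 33 stayed within and 27 moved beyond their counting intervals, and none changed sign. The shallow IR libraries limit what co-expression can show there, since IR CD8 had 109 cells with Fgl2 at 500 UMIs.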
